A study of Mus musculus with 10 samples.

Results

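The α- and β-crystallins are the 8 genes Cryaa, Cryab, Cryba1, Cryba2, Cryba4, Crybb1, Crybb2 and Crybb3, which were taken by symbol from the 50763 genes of the count table. All 8 had a row in each of the 10 libraries, and all 8 were among the 11097 genes that passed the filter on low expression. RNA-seq libraries were made from pooled lens epithelial explants of mice at 3 weeks of age, and the question behind the comparisons is which transcripts differ when active TGF-β1 is overexpressed in the lens. Wild-type (WT) mice gave 3 libraries and the transgenic lines OVE853 and OVE918 gave 3 and 4, all of them on the FVB/N background. Mice of OVE853 and OVE918 are homozygous for a transgene of secreted, constitutively active human TGF-β1 and develop anterior subcapsular plaques, and WT mice carry no transgene. The promoter of that transgene is the murine αA-crystallin promoter, which the study also describes as modified. It comes from Cryaa, the first of the genes described here. Each library was a pool from up to 9 mice in WT and OVE853 and up to 7 in OVE918, so that a replicate stands for a pool of animals.

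Crystallins are the abundant, water-soluble proteins that give the lens its transparency and refractive power. The α-crystallins belong to the small heat shock proteins and hold partly unfolded proteins in solution, whereas the β-crystallins, together with the γ-crystallins, form a separate family built of Greek key motifs. Epithelial cells of the lens already carry much α-crystallin, and the β- and γ-crystallins accumulate mainly as these cells elongate into fiber cells.

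Gene counts summed to between 24073311 and 31908525 per library, and no crystallin gene of the 8 had fewer than 54855 counts, so that counting error was at most 0.427% of a value and the spread between pools set the precision. Levels in CPM are counts per 1000000 of a library's counts in tested genes, after TMM scaling. Tgfb1 ranged from 50.6 to 61.7 CPM in WT, from 339 to 361 CPM in OVE853 and from 715 to 881 CPM in OVE918. Tgfb1 separated the groups as labelled. According to the study, Tgfb1 values in the lines mix reads of the mouse gene with human transgene reads that mapped to it. The defining markers of lens epithelium (Foxe3, Pax6, Cdh1, Gja1 and Mab21l1) were above 0 in every library. They summed to 1808 to 2324 CPM in WT, 1645 to 1770.5 CPM in OVE853 and 1338 to 1558 CPM in OVE918. This sum was lower in every transgenic library than in every WT library. Gja1, 1 of the 5, was a reduced differentially expressed gene (DEG, by the limits given below) in both lines (log2 fold changes -2.31 and -3.05). Its mean was 543 CPM in WT, 110 CPM in OVE853 and 65.7 CPM in OVE918, the largest difference of the 5 in CPM. In OVE853, 3 of the 5 fold changes were below 0 and 2 above (Foxe3, 0.29, and Pax6, 0.02 on the log2 scale). In OVE918 all 5 were below 0. The 4 ciliary epithelium markers summed to 161 to 241 CPM in WT, 42.5 to 59.8 in OVE853 and 14.8 to 26.0 in OVE918. Of these markers, 3 were reduced DEGs in OVE853 and 4 in OVE918, beside 212 and 335 of all 11097 genes tested. The part of either list in the crystallin values was not tested. The 11 fiber cell markers, also all above 0, summed to 6745 to 16285 CPM. WT replicate 3 stood apart from the other libraries, with the lowest fiber marker sum (6745 CPM) and the highest sum of retina markers (5227 CPM). The cornea marker sum was also highest in that library (1619 CPM), of which Aldh3a1 alone gave 1611 CPM. OVE853 replicate 2 had a γ-crystallin sum of 42520 CPM beside 9813 and 9149 CPM in the other OVE853 libraries. In bulk RNA, fewer fiber-like cells and less RNA per such cell cannot be told apart.

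In all 10 libraries Cryaa took more counts than any other gene, and the lowest place that any of the 8 genes took was rank 27. Together the 8 genes took 24.9%, 23.9% and 24.1% of the counts in the WT libraries, 18.7%, 18.6% and 16.4% in OVE853, and 29.1%, 20.2%, 24.4% and 28.7% in OVE918. Every OVE853 library was thus below every WT and OVE918 library, whereas the OVE918 libraries lay on both sides of WT. The mean share was 24.3% ± 0.548 (SD, n = 3) in WT, 17.9% ± 1.32 (n = 3) in OVE853 and 25.6% ± 4.20 (n = 4) in OVE918. The β-crystallins made up 38.6% ± 2.66 of the 8-gene total in WT, 36.3% ± 3.55 in OVE853 and 42.0% ± 4.00 in OVE918, and these ranges overlapped. Shares of a library are not independent of each other, and they are given without a test.

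The genes lie on 5 chromosomes, and all coordinates in this paragraph are those of GRCm39. Cryaa, which encodes αA-crystallin, is at chr17:31896781-31900707 on the plus strand. Cryab, which encodes αB-crystallin, is at chr9:50651859-50668567 on the plus strand and overlaps Hspb2 and 2310030G06Rik, which are read from the opposite strand. Hspb2, another small heat shock protein gene, was at 65.6 ± 6.48 CPM in WT, 61.9 ± 2.55 CPM in OVE853 and 56.5 ± 5.59 CPM in OVE918, a small level beside that of Cryab. Of the acidic β-crystallin genes, Cryba1 is at chr11:77609441-77616120 and Cryba2 at chr1:74929093-74932302, both on the minus strand. The other 4 genes are on chromosome 5. Cryba4 (chr5:112394359-112402226, minus strand) and the basic Crybb1 (chr5:112400811-112417965, plus strand) lie head to head, and their exons overlap by 100 bp on opposite strands. The basic Crybb2 (chr5:113206124-113217983) and Crybb3 (chr5:113223705-113229450) are both on the minus strand, 5722 bp apart. Read pairs were counted by strand, so that reads of genes on opposite strands were kept apart.

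A promoter sequence from RefSeq (GRCm38.p6) was matched for 7 of the 8 genes, and 5 are shown. They are those of Cryaa and of the 2 neighbouring pairs, whose levels are compared with each other further on. The Cryaa line is the sequence of the mouse genome, and the modified promoter of the transgene was not examined. Each line holds the 120 bases before the annotated start, 5′ to 3′ on the gene's strand, and capitals mark the motifs TGCTGA, the core to which large Maf factors bind, CAGACA, the SMAD box, and TATAAA, the TATA box, or their reverse complements.
Cryaa: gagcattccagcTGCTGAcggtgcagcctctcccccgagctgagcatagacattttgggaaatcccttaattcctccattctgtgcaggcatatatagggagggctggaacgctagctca
Cryba4: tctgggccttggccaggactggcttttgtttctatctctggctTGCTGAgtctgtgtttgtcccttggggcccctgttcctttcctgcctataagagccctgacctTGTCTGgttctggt
Crybb1: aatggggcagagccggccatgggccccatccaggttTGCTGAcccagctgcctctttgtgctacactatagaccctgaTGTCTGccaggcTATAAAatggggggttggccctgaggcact
Crybb2: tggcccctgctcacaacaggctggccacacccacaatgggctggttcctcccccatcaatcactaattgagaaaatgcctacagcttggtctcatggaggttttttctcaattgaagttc
Crybb3: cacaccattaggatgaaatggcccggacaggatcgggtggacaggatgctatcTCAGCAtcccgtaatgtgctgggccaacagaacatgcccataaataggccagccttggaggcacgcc

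In the GRCm38.p6 windows these lines are at chr17:31677811-31677930 (plus strand) for Cryaa, chr5:112252519-112252638 (minus strand) for Cryba4, chr5:112255700-112255819 (plus strand) for Crybb1, chr5:113070118-113070237 (minus strand) for Crybb2 and chr5:113081585-113081704 (minus strand) for Crybb3. Over the 250 bases before the start and on both strands, TGCTGA was found in 6 of the 7 crystallin windows, the exception being Crybb2, and in 15.8% of all 27025 windows. Cryba4 held 3 copies of it, and Cryaa, Cryba1, Cryba2, Crybb1 and Crybb3 held 1 each. CAGACA was found in Cryba2, Cryba4 and Crybb1 (17.1% of all windows), TATAAA in Cryba1 and Crybb1 (13.0%), the AP-1 site TGANTCA in Cryba2 (6.87%), the heat shock element TTCNNGAA in Cryba1 (7.10%), and the SMAD palindrome core GTCTAG in none of the 7 (7.25%). TGCTGA can share letters with TGANTCA, and a match of letters is a description of the window and not a binding site.

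Per kilobase of the canonical transcript, the WT means were ordered Cryaa (92976 CPM per kb), Crybb2 (60094), Cryba1 (33801), Cryab (21924), Cryba2 (15437), Cryba4 (6799), Crybb3 (5719) and Crybb1 (3657), again in CPM per kb. The WT ranges of Cryba1 and Cryab overlapped, as did those of Cryba4, Crybb3 and Crybb1, but the genes are measured in the same libraries. Within WT replicates 1, 2 and 3, Cryba1 was above Cryab each time (48153 and 23620, 29803 and 21856, 23447 and 20297 CPM per kb). Crybb1 was below both Cryba4 and Crybb3 in each WT library. Cryba4 and Crybb3 changed places, with Crybb3 the higher in WT replicate 1 only. The place of Cryab, Cryba4, Crybb1 and Crybb3 depends on the transcript taken as the length. With the shortest and the longest coding transcript, the WT level of Cryab was 56225 and 15680.1 CPM per kb, that of Cryba4 was 7276 and 4054 CPM per kb, that of Crybb1 was 6178 and 1210 CPM per kb, and that of Crybb3 was 14751 and 5308 CPM per kb. Comparisons of a gene between groups do not depend on this choice, and they are given in CPM.

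**Figure D1:**
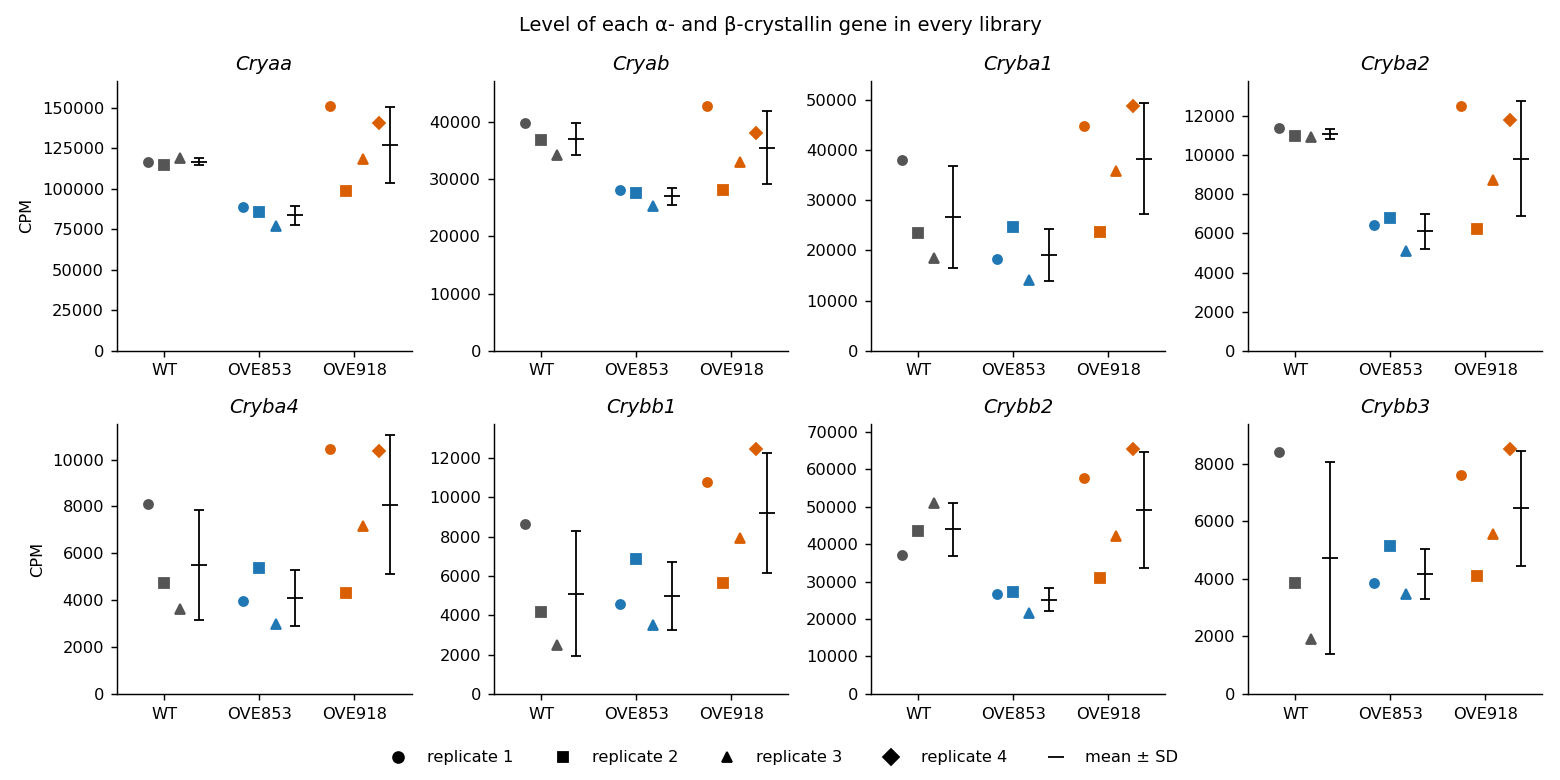
The level of each gene in CPM (vertical axes, from 0) is plotted for every library of WT, OVE853 and OVE918 (horizontal axes), with marker shapes for replicate numbers and the mean ± SD beside each group. The 3 WT points of Cryaa lie between 114482 and 118693 CPM, whereas those of Crybb3 spread from 1923 to 8421 CPM.

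The first comparison asked how the crystallin transcripts of OVE853 stood against WT. All 8 fitted fold changes were below 0, with a median of -0.47 on the log2 scale beside -0.01 over all genes tested, and Cryba2 and Crybb2 showed the largest differences. Leaving out a library moved this median between -0.60 and -0.27, the latter without WT replicate 1, where 2 of the 8 genes were above 0. None of the 8 genes was a differentially expressed gene (DEG) by the limits of the study (FDR ≤ 0.05 together with a log2 fold change of 1 or more in either direction), in a comparison in which 4.42% of all genes tested were DEGs. Without the limit on fold change, 1 of the 8 genes, Cryba2, passed in edgeR (15.8% of all genes, 7.69% in the lower direction), and 4 of 8 had an unadjusted p under 0.05 (34.1% of all genes).

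Cryba2, an acidic β-crystallin gene, was at 11408, 10991 and 10945 CPM in the WT libraries, at 6414, 6795 and 5099 CPM in OVE853, and at 12547, 6210.1, 8717 and 11830.2 CPM in OVE918. The OVE853 values lay below all WT values with a wide gap, and of the 4 OVE918 libraries 2 exceeded all WT values and 2 lay below them. In OVE853 Cryba2 was lower by a log2 fold change of -0.86 ± 0.235 (SE, 95% CI -1.38 to -0.35), which is 0.549-fold of WT (edgeR FDR = 0.0321). This call at an FDR of 0.05 was lost when WT replicate 2 (edgeR FDR = 0.0698), WT replicate 3 (0.0548) or OVE853 replicate 1, 2 or 3 (0.0972, 0.0711 and 0.134) was left out.

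Crybb2, which per kilobase of the canonical transcript was the β-crystallin gene with the highest level in all 10 libraries (in 8 by the longest transcripts), was at 37065, 43629 and 51092 CPM in WT and at 26747, 27101 and 21575 CPM in OVE853. Again no OVE853 library reached the lowest WT library. The log2 fold change was -0.81 ± 0.256 (95% CI -1.37 to -0.24), or 0.572-fold, and it did not pass (edgeR FDR = 0.0559). It would pass the FDR alone without WT replicate 1 (edgeR FDR = 0.0403), OVE918 replicate 2 (0.0215) or OVE918 replicate 4 (0.0320).

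Both α-crystallin genes were lower in each OVE853 library than in each WT library. Cryaa was at 116599, 114482 and 118693 CPM in WT and at 88415, 85362 and 76865 CPM in OVE853, with a log2 fold change of -0.48 ± 0.171 (95% CI -0.86 to -0.10; edgeR FDR = 0.0796). Cryab, the stress-inducible α-crystallin gene of many tissues, was at 39917, 36937 and 34302 CPM in WT and at 28134, 27630 and 25276 CPM in OVE853, with a log2 fold change of -0.46 ± 0.165 (95% CI -0.82 to -0.09; edgeR FDR = 0.0823). The 4 genes Cryaa, Cryab, Cryba2 and Crybb2 were thus the ones without overlap between OVE853 and WT, a pattern that 22.0% of all genes tested showed in the lower direction. DESeq2 gave these 4 genes, and no other of the 8, adjusted p-values under 0.05 (0.0130 for Cryaa, 0.0186 for Cryab, 0.00198 for Cryba2 and 0.00839 for Crybb2), at fold changes short of the DEG limit.

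Cryba1, Cryba4, Crybb1 and Crybb3 overlapped between OVE853 and WT. The log2 fold changes were -0.49 ± 0.324 for Cryba1, -0.42 ± 0.378 for Cryba4, -0.04 ± 0.441 for Crybb1 and -0.18 ± 0.457 for Crybb3, and the edgeR FDR lay between 0.309 and 0.963. The 95% intervals of these 4 genes reached from -1.26 to 0.95 at their outer ends, so that these pools could not settle whether they differed. Leaving out WT replicate 1 turned the sign of Crybb1 (log2 fold change 0.58) and Crybb3 (0.53), and leaving out OVE853 replicate 1 or 3 turned that of Crybb1 (0.01 and 0.15).

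**Figure D2:**
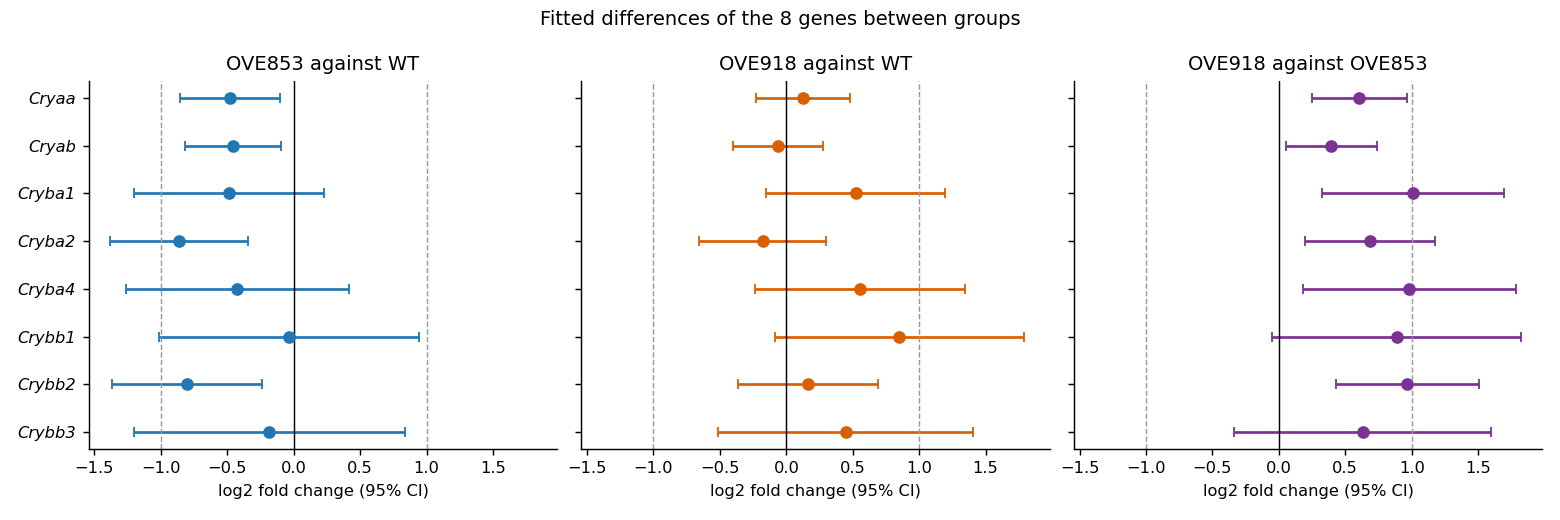
Fitted log2 fold changes (horizontal axes, points) with 95% confidence intervals (bars) are plotted for the 8 genes in the 3 comparisons, with dashed lines at -1 and 1, the study's limit on fold change. The points lie left of 0 for all 8 genes in OVE853 against WT, on both sides of 0 in OVE918 against WT, and right of 0 for all 8 genes in OVE918 against OVE853.

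The second comparison set OVE918 against the same WT libraries, which both comparisons share. No crystallin gene of the 8 was a DEG (5.60% of all genes tested were), none had an FDR under 0.05 (19.0% of all genes) or an unadjusted p under 0.05 (33.2%) in edgeR, and 0 were DEGs or passed the FDR in DESeq2. Of the fitted values, 6 were above 0 (Cryaa, Cryba1, Cryba4, Crybb1, Crybb2 and Crybb3) and 2 below (Cryab and Cryba2). In all 8 genes the OVE918 and WT libraries overlapped, whereas 27.2% of all genes tested had no overlap. The median log2 fold change was 0.30, and it was 0.49 without WT replicate 1, 0.47 without OVE918 replicate 2 and 0.18 without OVE918 replicate 4.

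Crybb1, a basic β-crystallin gene, had the largest difference, at 8642, 4188 and 2498 CPM in WT and 10792, 5624, 7954 and 12479.7 CPM in OVE918. The WT values spread 3.46-fold, and the highest WT library exceeded 2 of the OVE918 libraries. The log2 fold change was 0.85 ± 0.422 (95% CI -0.09 to 1.79; edgeR FDR = 0.190). Without WT replicate 1, Crybb1 and Crybb3 would both pass as elevated DEGs, with log2 fold changes of 1.46 and 1.16 (edgeR FDR = 0.0234 and 0.0436).

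Cryaa in OVE918 was at 151319, 98441, 118205 and 140509 CPM, a range of 1.54-fold around the narrow WT range. Its log2 fold change was 0.12 ± 0.16 (95% CI -0.23 to 0.48; edgeR FDR = 0.636), and that of Cryab was -0.06 ± 0.154 (95% CI -0.40 to 0.28; edgeR FDR = 0.823). For both α-crystallin genes the interval lay within 0.48 of 0 on the log2 scale. Cryba1 (0.52), Cryba4 (0.56), Crybb2 (0.16), Crybb3 (0.45) and Cryba2 (-0.18) had log2 fold changes with edgeR FDR between 0.264 and 0.688.

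The third comparison set the lines against each other and reuses the libraries of the other comparisons. All 8 fitted values were above 0 in OVE918 relative to OVE853, from 0.39 for Cryab to 1.01 for Cryba1, with a median of 0.79 beside -0.02 over all genes tested. Of the 8 genes, 6 had an unadjusted p under 0.05 (22.9% of all genes), but none passed the FDR of 0.05 in edgeR (1.32% of all genes) and none was a DEG (0.487%). DESeq2 put 5 of the 8 genes at an FDR under 0.05, and it called 1 of them, Cryba1, an elevated DEG (log2 fold change 1.02, adjusted p = 0.0116).

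Crybb2 had the smallest FDR of the 8 genes between the lines, at 57686, 30843, 42295 and 65469 CPM in OVE918 beside the 21575 to 27101 CPM of OVE853. No library of OVE918 fell into the OVE853 range, and the log2 fold change was 0.96 ± 0.244 (95% CI 0.43 to 1.5; edgeR FDR = 0.0772). Without WT replicate 3 it would pass the FDR alone (edgeR FDR = 0.0480). Cryaa (0.61 ± 0.162; edgeR FDR = 0.0815) and Cryab (0.39 ± 0.155; edgeR FDR = 0.174) likewise had no overlap between the lines, so that 3 of the 8 genes were separate in the higher direction, as were 13.4% of all genes tested. For Cryab the gap was small, between 28134 CPM in OVE853 replicate 1 and 28176 CPM in OVE918 replicate 2, and as a percent of all counts of the library, without TMM scaling, these libraries crossed (2.92% and 2.82%). Cryba1 was at 44748, 23725, 35895 and 48908 CPM in OVE918 and at 18358, 24583 and 14188 CPM in OVE853, and the lowest OVE918 library fell below the highest OVE853 library.

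OVE918 replicate 2 was the lowest OVE918 library for each of the 8 genes. Without it, Cryba1 (log2 fold change 1.18, edgeR FDR = 0.0480) and Crybb2 (1.13, edgeR FDR = 0.0295) would be elevated DEGs between the lines and 4 of the 8 genes would pass the FDR alone, and in OVE853 against WT, 4 of the 8 genes instead of 1 would pass the FDR alone, although that library is in neither of those groups. That library also had the lowest sums of γ-crystallins (14769 CPM) and of fiber cell markers (13503 CPM) of the OVE918 group, and their part in these values was not tested.

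The 8 genes differed in how closely the WT pools agreed. In WT the coefficient of variation was 1.81% for Cryaa, 2.29% for Cryba2, 7.58% for Cryab and 16.0% for Crybb2, against 38.0% for Cryba1, 42.6% for Cryba4, 62.1% for Crybb1 and 70.4% for Crybb3. In OVE853 the same values ranged from 5.65% for Cryab to 34.4% for Crybb1, and in OVE918 from 17.9% for Cryab to 36.6% for Cryba4. The genes with a wide WT spread were those that overlapped between OVE853 and WT.

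The wide WT spread had the same order of libraries in several genes. Cryba1 was at 37993, 23514 and 18499 CPM in WT replicates 1, 2 and 3, Cryba4 at 8121, 4716 and 3644 CPM, and Crybb3 at 8421, 3861 and 1923 CPM. In these 3 genes and in Crybb1, WT replicate 1 was the highest and WT replicate 3 the lowest WT library, whereas Crybb2 had the opposite order. The fiber cell markers of the same libraries summed to 14931, 10280.0 and 6745 CPM, and the γ-crystallins to 22507, 13626 and 11543 CPM. Cryaa and Cryba2 differed by at most 1.04-fold between the same 3 libraries.

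The make-up of the β-crystallin transcripts varied more among WT pools than among transgenic pools. Crybb2 took 33.2%, 48.0% and 57.7% of the β-crystallin counts in the WT libraries, 41.9%, 35.7% and 42.4% in OVE853, and 40.1%, 41.2%, 39.3% and 41.5% in OVE918. Crybb3 took 7.54%, 4.25% and 2.17% in WT, and between 5.17% and 6.87% in the 7 transgenic libraries. The SD of the Crybb2 share was 12.3 percentage points in WT, 3.72 in OVE853 and 1.03 in OVE918, and with 3 or 4 pools a group these SDs were not tested against each other.

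**Figure D3:**
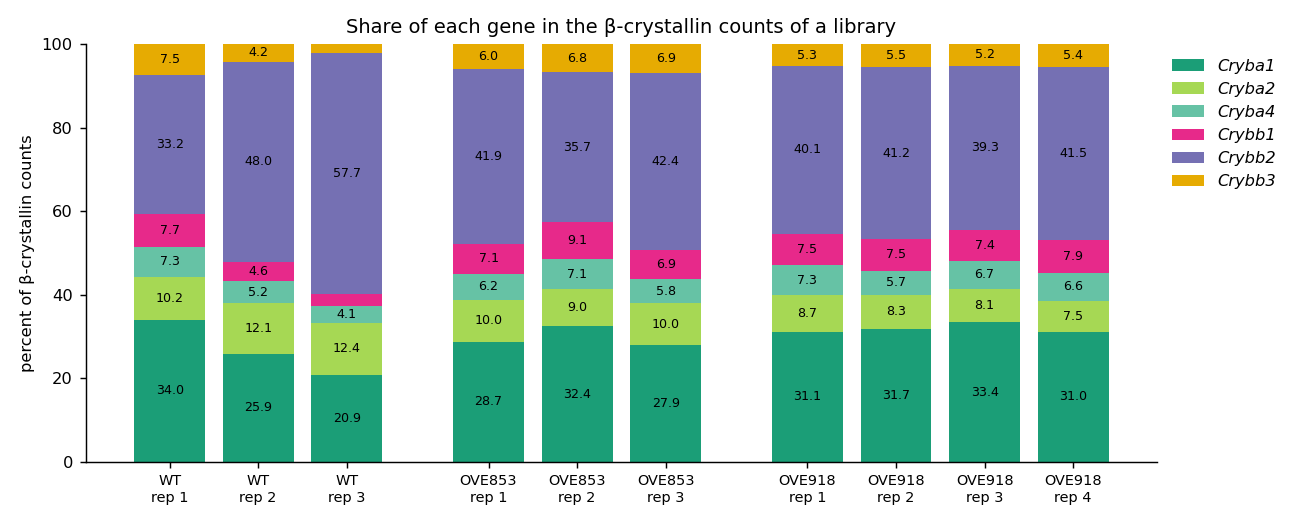
Stacked bars give the percent of the β-crystallin counts (vertical axis, from 0 to 100) that each of the 6 genes took in each library (horizontal axis). The Crybb2 segment runs from 33.2% to 57.7% in WT and from 39.3% to 41.5% in OVE918.

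Ratios of counts within a library do not depend on how libraries are scaled, and 3 were examined, that of the α-crystallins and those of the 2 neighbouring pairs on chromosome 5. The ratio of Cryaa to Cryab was 2.92, 3.10 and 3.46 in WT, 3.14, 3.09 and 3.04 in OVE853, and 3.53, 3.49, 3.58 and 3.70 in OVE918. All OVE918 libraries were above all others. The mean log2 ratio exceeded that of WT by 0.18 and that of OVE853 by 0.21, each at an exact two-sided permutation p = 0.0571, the smallest that 4 against 3 libraries can give, and neither passed after adjustment over the 12 comparisons of ratios (adjusted p = 0.171 by the exact permutation test). The highest WT library, WT replicate 3, had a ratio of 3.46 and lay close to the lowest OVE918 library at 3.49.

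For Cryba4 and Crybb1, the head-to-head pair, the ratio was 0.940, 1.13 and 1.46 in WT, 0.867, 0.779 and 0.843 in OVE853, and 0.970, 0.763, 0.902 and 0.832 in OVE918. The 7 transgenic libraries lay below the WT libraries except OVE918 replicate 1, which was above WT replicate 1. Across both lines the mean log2 ratio was -0.45 relative to WT (exact permutation p = 0.0333, adjusted p = 0.171), and this p was above 0.05 without WT replicate 1 (0.0556), WT replicate 2 (0.111) or WT replicate 3 (0.111). With 2 WT libraries against 7, the smallest two-sided p of the exact permutation test is 0.0556. Without WT replicate 3 the difference itself was -0.28.

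For Crybb3 and Crybb2, neighbours on the same strand, the ratio was 0.227, 0.0885 and 0.0376 in WT, 0.144, 0.191 and 0.162 in OVE853, and 0.132, 0.133, 0.132 and 0.130 in OVE918. The WT libraries thus spread 6.04-fold and included both the highest and the lowest ratio of all 10, whereas the OVE918 libraries were within 1.02-fold of each other. The mean log2 ratio exceeded that of WT by 0.85 in OVE853 (exact permutation p = 0.4) and by 0.53 in OVE918 (exact permutation p = 0.629), in designs whose smallest p is 0.1 and 0.0571 and could not reach 0.05. Without WT replicate 3 the sign for OVE918 turned, to a log2 difference of -0.11. All OVE853 libraries were above all OVE918 libraries, at the smallest p of that design (exact permutation p = 0.0571, adjusted p = 0.171).

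**Figure D4:**
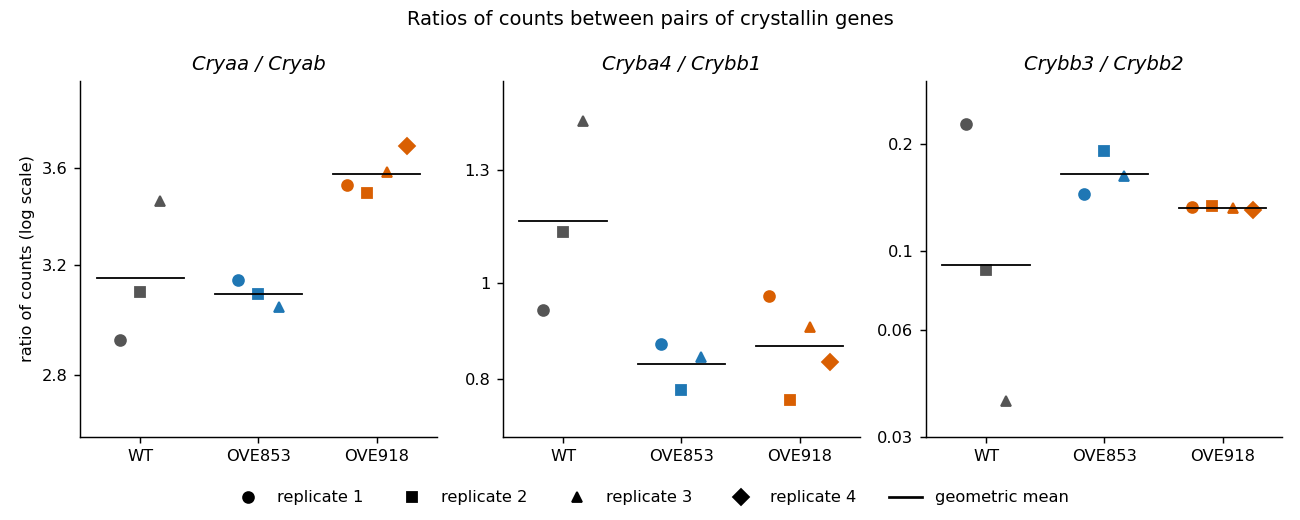
Ratios of counts (vertical axes, log scale) between Cryaa and Cryab, Cryba4 and Crybb1, and Crybb3 and Crybb2 are plotted for every library by group, with the geometric mean as a line. For Crybb3 over Crybb2 the WT points run from 0.0376 to 0.227 while the 4 OVE918 points lie between 0.130 and 0.133.

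Over the 10 libraries the closest pairs of genes lay partly within and partly across the α, acidic β and basic β classes. The highest Pearson r of log2 CPM among the 8 genes was between the acidic Cryba1 and Cryba4 (0.989, Spearman's rho 0.964). Cryab and the acidic Cryba2 followed (0.970, rho 0.939), then Cryaa and the basic Crybb2 (0.965, rho 0.939) and the basic Crybb1 and Crybb3 (0.963, rho 0.976). The α-crystallins Cryaa and Cryab had an r of 0.931 (rho 0.867), and the neighbours Crybb2 and Crybb3 one of 0.310 (rho 0.467). For deviations from the group means, the same values were 0.993, 0.933, 0.902, 0.976, 0.928 and 0.169. By that measure Cryba1 with Cryba4 stayed the highest, but the order below it changed. Cryaa with Cryba2 (0.980), Cryba1 with Crybb1 (0.973) and Cryba4 with Crybb1 (0.953) stood above Cryab with Cryba2. Without the 2 libraries farthest from the median of the second gene, the pairs named first had 0.983, 0.957, 0.947, 0.931, 0.864 and 0.626. The value of Crybb2 and Crybb3 thus rose from 0.310 without WT replicate 3 and OVE918 replicate 4, but it stayed the lowest of these pairs. These r describe 10 libraries in 3 groups that share their scaling, and no p is given.

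The summed fiber cell markers moved with part of the family. Their r with Crybb1 was 0.902 and with Crybb3 0.903 (rho 0.927 and 0.855), against 0.671 for Cryba1, 0.695 for Cryba4, 0.169 for Cryaa, 0.157 for Cryab, 0.019 for Crybb2 and 0.0099 for Cryba2. When WT replicates 2 and 3, the libraries farthest from the median fiber marker sum, were left out, r was between 0.788 and 0.950 for all 8 genes, so that the low values of Cryaa, Cryab, Cryba2 and Crybb2 rest on those libraries. No defining fiber marker was at 0 in any group. The part of fiber cell content in the differences between groups was not tested.

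**Figure D5:**
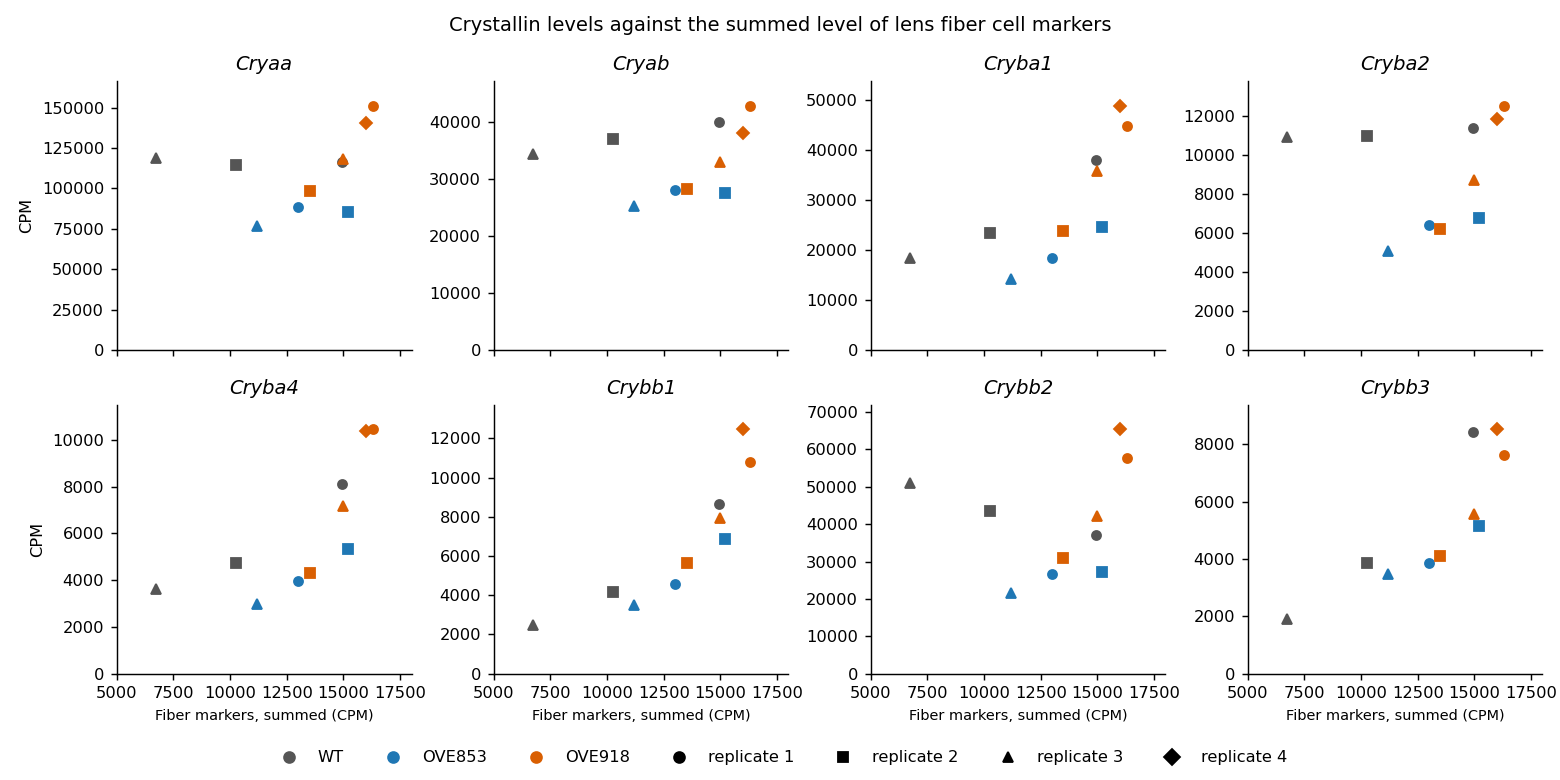
The level of each gene (vertical axes, CPM, from 0) is plotted against the summed CPM of 11 fiber cell markers (horizontal axes, CPM) for the 10 libraries, with colors for groups and shapes for replicates. Crybb1 and Crybb3 climb with the marker sum over all libraries, while Cryaa and Crybb2 of WT replicates 2 and 3 lie high at the low marker sums of 10280.0 and 6745 CPM.

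Of the other genes tested, those most like Cryaa over the 10 libraries were Prox1os (r = 0.968), Tecr (0.965), Higd2a (0.964), Dbi (0.957) and Ube2g2 (0.953). Prox1os, an antisense transcript of the lens regulator gene Prox1, was at 52.1 ± 0.285 CPM in WT, 35.7 ± 3.89 CPM in OVE853 and 53.1 ± 12.8 CPM in OVE918, the same narrow WT range and low OVE853 group as Cryaa. The genes most like Cryab were Gm10123 (0.964), Prox1os (0.951), Fam89a (0.946), Grifin (0.935) and Nkiras2 (0.930). Grifin encodes a galectin-related protein of lens fibers. Closest to the mean of the 6 β-crystallins were Dbnl (0.986), Larp1b (0.971), Gm10138 (0.966), Lim2 (0.963) and Tdrd7 (0.959). Lim2 encodes a membrane protein of fiber cells, and Tdrd7 a protein of RNA granules in the lens.

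The γ-crystallins are the third large crystallin family of the lens. All 8 γ-crystallin genes were tested, and none was a DEG in OVE853, in OVE918 or between the lines (4.42%, 5.60% and 0.487% of all genes). Crygs, the most abundant of them, was at 11633 CPM in WT, 7523 CPM in OVE853 and 14623 CPM in OVE918, with log2 fold changes of -0.63 ± 0.298 and 0.33 ± 0.280 (edgeR FDR = 0.163 and 0.452). Crygb, Crygc and Crygd, the next in abundance, had log2 fold changes of 0.99 to 1.75 relative to WT in OVE853 and of 2.26 to 3.08 in OVE918, with standard errors of 1.06 or more and edgeR FDR no lower than 0.113. Over the 8 γ-crystallin genes the median log2 fold change was 1.58 for OVE853 and 2.85 for OVE918, beside -0.01 and 0.01 over all genes. The OVE853 value rests on OVE853 replicate 2, since without it the median was -0.32 and 6 of the 8 genes were below 0, and without WT replicate 1 it was 2.57. Cryga to Crygf are close copies of each other, and how reads were split among them is uncertain.

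Of 7 other small heat shock protein genes, 5 were tested and 0 were DEGs in any comparison, in which 4.42%, 5.60% and 0.487% of all genes were DEGs. Of the 5, 1 had an FDR under 0.05, Hspb6 in OVE918 (log2 fold change 0.73 ± 0.186, edgeR FDR = 0.0192), beside 19.0% of all genes. Hspb1, which had the highest mean CPM of them over the 10 libraries, was at 23.6 CPM in WT, 53.5 CPM in OVE853 and 147 CPM in OVE918 with standard errors over 1 on the log2 scale (edgeR FDR = 0.457 and 0.123). Of 10 heat shock chaperone genes, 8 were tested and 0 were DEGs. In OVE918 against WT, 2 of the 8, Hspd1 and Dnajb1, had an FDR under 0.05 (log2 fold changes 0.35 and 0.46), beside 19.0% of all genes. Between the lines 1 of the 8 did, Dnajb1 (0.69 ± 0.139, edgeR FDR = 0.0458), beside 1.32% of all genes. Hspb6, Hspb8, Hspd1 and Dnajb1 were chosen after their values were seen.

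Among 20 genes for factors that regulate crystallin genes or act on crystallin transcripts, 19 were tested. Hsf4, the heat shock factor of the postnatal lens, was the only DEG among the 19 (5.60% of all genes tested were DEGs in OVE918), at 50.4 CPM in WT, 49.3 CPM in OVE853 and 105 CPM in OVE918, and it was elevated in OVE918 by a log2 fold change of 1.06 ± 0.287 (edgeR FDR = 0.0276). In OVE853 it was at -0.03 ± 0.299 (edgeR FDR = 0.954), and the difference between the lines, tested directly, was 1.09 ± 0.287 (edgeR FDR = 0.0815). Of the more abundant regulators, Foxe3 had log2 fold changes of 0.29 ± 0.191 and -0.13 ± 0.178 (edgeR FDR = 0.299 and 0.664), and Prox1 of 0.65 ± 0.234 and 0.51 ± 0.221 (edgeR FDR = 0.0813 and 0.131) in OVE853 and OVE918. Maf, a large Maf factor gene, was at 0.18 ± 0.180 and 0.21 ± 0.169 (edgeR FDR = 0.507 and 0.432). In each line 4 genes, Sox2, Six3, Meis1 and Meis2, passed the FDR in the lower direction without reaching the fold change (7.69% of all genes in OVE853 and 11.0% in OVE918), and these 4 and Maf were chosen after their values were seen. Six3, a homeobox gene of the early eye field, had log2 fold changes of -0.38 ± 0.0776 and -0.66 ± 0.0721, and Meis2, a factor upstream of Pax6, of -0.75 ± 0.112 and -0.83 ± 0.103.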

How the data were processed

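RNA-seq was performed on 10 libraries of pooled lens epithelium, grouped by the genotype labels. According to the study's methods and the submitters' processing notes, the authors used Cutadapt 5.2 for trimming and STAR 2.7.11b for alignment to GRCm39 (mm39), counted read pairs per RefSeq gene by strand with featureCounts 2.0.8 and deposited the counts as they were, not normalized. No column lacked a sample (0).

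Counts were analysed with edgeR 4.0.16 in R 4.3.3, an earlier version than the 4.6.3 of the authors, with TMM scaling, robust quasi-likelihood fits over 3 groups and 3 contrasts, and Benjamini-Hochberg adjustment over all genes tested. Genes entered with 2 FPKM or more in 5 libraries, with exon lengths of GENCODE vM39 in place of the RefSeq lengths of the authors, matched by symbol or synonym (7489 of 50763 genes had none), and a DEG needed FDR ≤ 0.05 and a log2 fold change of 1 or more in size. SE and 95% CI come from the same fit. Log2 CPM for correlations had a prior count of 2, and the 5 genes with the highest r were named. Ratios were tested by exact two-sided permutation in scipy 1.17.1. The comparison of ratios between the lines and the canonical transcript lengths were chosen after seeing the data. Fits and permutation tests were tested on simulated data.

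All 8 genes were named in every comparison. From the other lists, DEGs or else the most abundant genes were named, up to 4 a list. Genes, lists and motifs were chosen with earlier results of these data known. Alternatives were DESeq2 1.42.0, other scalings, filters and limits, a fit of only the groups compared, a replicate block and leaving out each library. The labels number the replicates, and the study describes each sample as a pool, so that p-values measure the spread between pools.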

Additional observations from a re-analysis of the deposited data

How the results depend on the processing

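None of the 8 α- and β-crystallin genes was a DEG in OVE853 against WT under any alternative that kept the fold change limit, and the calls that appeared elsewhere are named with their libraries or tools above. A fit of only WT and OVE853 put 4 of the 8 genes (Cryaa, Cryab, Cryba2 and Crybb2) at an edgeR FDR under 0.05, with no change to the DEG calls among the 8. DEG counts over all genes moved beyond 1.5 times with filterByExpr (1244 for OVE853 and 1587 for OVE918, from 491 and 621), with no filter (1061 and 1548), with FDR alone (1752 and 2110.0, and 146 between the lines) and with a test against a fold change of 2 (129, 227 and 0). Between the lines the 54 DEGs became 106 with DESeq2 and 97 in a fit of only those groups, and leaving out a library gave 6 to 93. With the TMM-scaled counts in tested genes as the denominator, in place of all counts of the library, the WT share of the 8 genes was 25.1% instead of 24.3%. The denominators differ both in the genes they hold and in scaling.

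Leaving out a library moved the log2 fold change of Crybb1 and Crybb3 in OVE853 between -0.36 and 0.58 and between -0.56 and 0.53, and that of Cryab and Crybb2 in OVE918 between -0.16 and 0.037 and between -0.0099 and 0.33. For log2 ratios relative to WT it gave -0.083 to 0.039 for Cryaa to Cryab in OVE853, -0.60 to -0.28 for Cryba4 to Crybb1 in both lines and -0.11 to 1.19 for Crybb3 to Crybb2 in OVE918. The cause was not tested, apart from the fewer libraries.

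Replicate numbers did not pair the samples, since deviations from the group means of libraries with the same number correlated between -0.303 and 0.0838. With a replicate block the log2 fold change was 0.11 for Crybb1 and 0.028 for Crybb3 in OVE853 and -0.039 for Crybb2 in OVE918, the DEG count between the lines was 28, and the ratio of Cryba4 to Crybb1 in both lines, without OVE918 replicate 4, was at -0.44 (exact permutation p = 0.25, the smallest that 3 pairs can give), so that this p says nothing of stability.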
